A study of Mus musculus with 15 samples.

Results

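The costimulatory receptors of the TNF receptor and CD28 families were followed across naive, antigen-primed and costimulated CD8+ T cells. The 10 genes were taken by name from the gene table, which held 55536 genes matched to the annotation. They were 8 TNF receptor genes (Tnfrsf4, Tnfrsf9, Tnfrsf18, Cd27, Tnfrsf25, Tnfrsf1a, Tnfrsf1b and Tnfrsf14) and 2 CD28 family genes (Cd28 and Icos). All 10 were among the 17366 genes that passed the filter on low counts and were tested.

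The cells were OT-I Tg CD8+ T cells on the C57BL/6J background, whose transgenic receptor recognises the SIINFEKL peptide of ovalbumin, and the study's methods give Rag1-/- or Rag2-/- donors. Each of 3 groups had 5 libraries. Naive cells came from OT-I mice and were not transferred. In the Ag group, transferred OT-I cells saw SIINFEKL peptide with a control rat IgG in wild-type C57BL/6J recipients. In the Ag+Costim group, the recipients were given the peptide with agonist antibodies to OX40 (CD134, the product of Tnfrsf4) and 4-1BB (CD137, the product of Tnfrsf9). Per the labels, spleen and lymph nodes were taken after 4 days and the cells were sorted. Naive cells therefore differed from both other groups in transfer and host as well as in antigen, and these cannot be told apart. Both antibodies were given together, so the receptors cannot be told apart by stimulus. The labels call each library a sample of its own, and p-values measure the spread between these libraries.

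T cells need a second signal beside the T cell receptor. CD28 is present on resting cells and binds CD80 and CD86 on antigen-presenting cells, whereas ICOS, its relative, is induced by activation. OX40, 4-1BB and GITR are TNF receptors without a death domain that recruit TRAF adaptors, activate NF-kappaB and sustain the survival of primed T cells. CD27 is already present on naive cells, and TNFR1, the product of Tnfrsf1a, and DR3, the product of Tnfrsf25, carry death domains. All values are levels of RNA in bulk libraries, where fewer cells of a type and less RNA per cell cannot be told apart, and surface protein was not measured.

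Total counts ran from 4865952 in Ag 3 to 25280667 in Naive 3. The CD8 T cell markers, 8 of 8 of which had counts in every library, summed to 4817 to 7873 counts per 1000000 (CPM) in Naive, 3964 to 6718 CPM in Ag and 4057 to 5054 CPM in Ag+Costim libraries, with medians of 6965, 6029 and 4589 CPM. Ag+Costim lay below Naive 1 to 4 in this sum, and Naive 5 lay within the Ag+Costim range. Cd8b1 had a lowest value of 1119 CPM. Foxp3 did not pass 1.12 CPM and Cd4 did not pass 4.79 CPM in any library. Some libraries stood apart from their group. The B cell marker Ms4a1 had a highest value of 77.1 CPM in Ag 3, against at most 2.06 CPM in Naive libraries. The 10 B cell markers summed to 586 to 1042 CPM in Naive, 594 to 1434 CPM in Ag and 494 to 739 CPM in Ag+Costim libraries. The 6 erythroid markers summed to 1311 CPM in Ag 3, 52.3 to 151 CPM in Naive and 4.39 to 37 CPM in Ag+Costim libraries. The 5 NK cell markers summed to 11.5 to 60.6 CPM in Naive, 4.55 to 43.1 CPM in Ag and 2.85 to 7.73 CPM in Ag+Costim libraries. The 5 plasma cell markers summed to 0.465 to 3.94 CPM in Naive, 0.62 to 34.2 CPM in Ag and 8.53 to 31.7 CPM in Ag+Costim libraries. For the erythroid, NK and plasma cell markers the Ag+Costim and Naive sums thus did not overlap, the first 2 lower and the last higher in Ag+Costim. The 10 myeloid markers summed to 710 CPM in Naive 5, against a median of 116 CPM, with the neutrophil gene S100a8 at 433 CPM. The 6 CD4 and regulatory T cell markers summed to 15.6 to 34 CPM in Naive, 15.5 to 243 CPM in Ag and 9.35 to 21.8 CPM in Ag+Costim libraries. Of the markers of these 6 other cell types, Igha, Ighg1 and Mzb1 of the plasma cell list were at 0 in all Naive libraries, and no other was at 0 in all libraries of a group. Izumo1r, one of the CD4 and regulatory T cell markers, stood at 206 CPM in Ag 4 and 196 CPM in Ag 1, against 10.3 to 14.6 CPM for the lowest and the median Ag library. The RNA input column listed 1.4 for Ag 2 and 1.8 for Ag 5, against 10 for most libraries, without a unit. Lane 2 carried Ag 1 to 5 with Ag+Costim 1 to 3, and lane 3 carried Naive 1 to 5 with Ag+Costim 4 and 5. Ag and Naive were never sequenced in the same lane, so their own libraries cannot tell lane and group apart. A fit with lane as a term separates them only through the Ag+Costim libraries, which were in both lanes. The part of these differences between libraries in the results was not tested.

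The members sit on 3 chromosomes (GRCm38). Tnfrsf4 (chr4:156013843-156016612) and Tnfrsf18 (chr4:156026164-156028895) are neighbours on the same strand. Tnfrsf1b, Tnfrsf9, Tnfrsf25 and Tnfrsf14 lie on chromosome 4 too. Cd27 (chr6:125232622-125237010) and Tnfrsf1a (chr6:125349362-125362484) share chromosome 6, and Cd28 (chr1:60716800-60773359) and Icos (chr1:60977927-61000320) share chromosome 1. The library kit does not mark strand. The antisense gene Gm16008 covers 414 bases of Tnfrsf18 exons and the microRNA gene Mir8113 covers 129 bases of Cd27 exons, so reads there cannot be assigned with certainty.

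The promoters of Tnfrsf9 and Tnfrsf25 are shown because these members had the largest fitted differences from Naive, in opposite directions, and because they were the members with a match to an NF-kappaB motif. RefSeq (GRCm38.p6) gave windows for 8 of the 10 members, with 10 windows in all. Cd28 and Icos had none in the table. Each window holds the 250 bases before a gene start, written 5′ to 3′, with matches to the NF-kappaB motif GGGNNTTTCC or the AP-1 motif TGANTCA on either strand in capitals.
Tnfrsf9, chr4:150927749-150927998, plus strand: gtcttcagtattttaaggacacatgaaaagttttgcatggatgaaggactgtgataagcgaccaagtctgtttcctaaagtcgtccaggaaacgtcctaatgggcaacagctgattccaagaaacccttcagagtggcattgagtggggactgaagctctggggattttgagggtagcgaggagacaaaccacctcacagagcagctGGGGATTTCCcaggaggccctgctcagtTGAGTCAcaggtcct
Tnfrsf25, chr4:152115684-152115933, plus strand: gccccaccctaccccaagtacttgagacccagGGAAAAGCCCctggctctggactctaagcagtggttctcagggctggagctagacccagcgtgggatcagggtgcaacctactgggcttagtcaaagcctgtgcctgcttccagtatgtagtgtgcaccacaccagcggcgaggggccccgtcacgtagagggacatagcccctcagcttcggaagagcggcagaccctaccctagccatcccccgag

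The NF-kappaB motif begins 43 bases before the Tnfrsf9 start and the AP-1 motif 15 bases before it. In Tnfrsf25 the NF-kappaB motif begins 218 bases before the start, on the other strand, and overlaps a match to the NFAT motif GGAAAA. Of all 32851 promoter windows, 1.41% held the NF-kappaB motif, 6.75% the AP-1 motif and 20.4% the NFAT motif. The NFAT motif was matched in 5 of the 10 member windows (Tnfrsf9 at another start, Tnfrsf25, Tnfrsf14, Tnfrsf18 and Cd27). A match to these letters is a description of the window. The Tnfrsf9 window shown precedes the first exon that begins at base 150927999, and transcripts with that first exon held the largest share of Tnfrsf9 counts in 14 of 15 libraries. The share was 86.4% in Naive 1 and 29.7% in Ag+Costim 1, the highest and the lowest library, and in Ag 2 the first exon at base 150920155 had more.

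Levels were compared between members per transcript length, as transcripts per 1000000 (TPM). Cd27 had the highest level in every group, with 481 ± 121 TPM for Naive, 425 ± 170 for Ag and 285 ± 33.5 for Ag+Costim (SD, n = 5), and was separated from the next member in each. Cd28 came next at 109 ± 5.33, 143 ± 55.9 and 114 ± 9.26 TPM. In Naive cells Tnfrsf18 followed Cd28 without separation. Tnfrsf1b, Icos, Tnfrsf25, Tnfrsf1a and Tnfrsf9 then formed a middle range of 38.4 to 23.6 TPM in the mean, in which no neighbour was separated from the next. Tnfrsf14 and Tnfrsf4 were lowest, at 6.12 ± 1.92 and 4.34 ± 2.07 TPM. In Ag+Costim the order changed. Tnfrsf9 stood in the third place at 81.7 ± 9.77 TPM and Tnfrsf25 in the ninth at 4.27 ± 1.75 TPM. In that group only the neighbours Tnfrsf9 and Tnfrsf1b, and Tnfrsf1b and Tnfrsf18, overlapped. Cd27 made up 56.3% ± 7.48 of the summed TPM of the 10 members in Naive cells, 48.5% ± 4.15 after Ag and 40.9% ± 2.58 after Ag+Costim, while Tnfrsf9 made up 3.14% ± 3.76, 7.87% ± 4.08 and 11.8% ± 1.93.

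**Figure D1:**
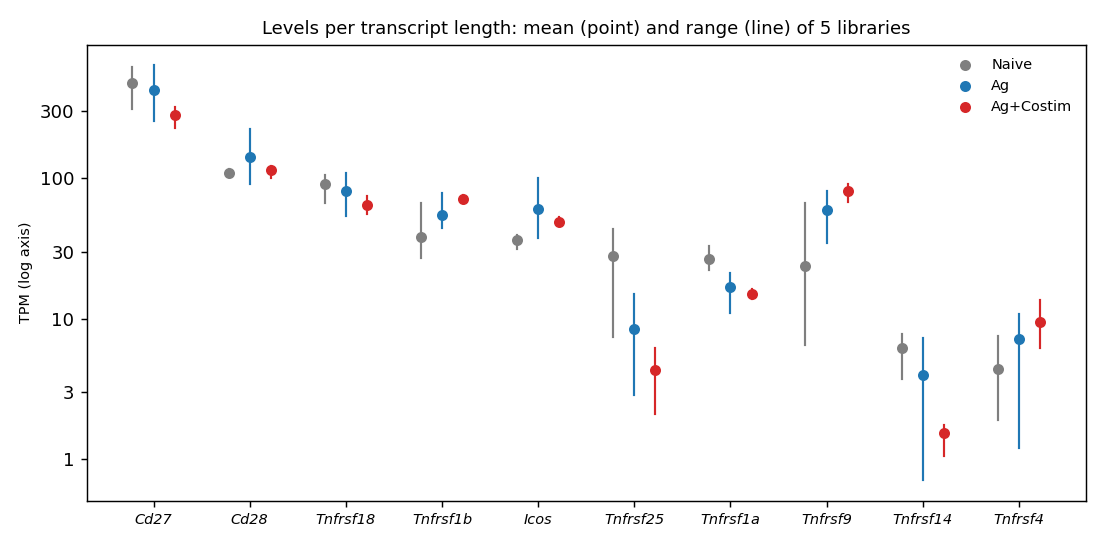
Level of each member in TPM (log axis) in Naive, Ag and Ag+Costim cells; points are means and lines the range of 5 libraries. Cd27 is highest in all 3 groups (481, 425 and 285 TPM), and Tnfrsf9 is above Tnfrsf25 in Ag+Costim (81.7 against 4.27 TPM) but not in Naive (23.6 against 27.9 TPM).

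Against Naive cells, 2 members rose in Ag (Icos and Cd28) and none fell. Ag+Costim cells had 3 members that rose (Tnfrsf1b, Tnfrsf9 and Icos) and 4 that fell (Tnfrsf25, Tnfrsf14, Tnfrsf1a and Cd27). Between Ag+Costim and Ag no member passed the test. A call is an FDR under 0.05 in edgeR's quasi-likelihood test, adjusted over all genes. For Ag vs Naive, 6.71% of all genes were called, 3.05% higher and 3.66% lower. For Ag+Costim against Naive, 44.7% were called, 21.0% higher and 23.6% lower, so that 7 of 10 members called is set against a background near 1 gene in 2. The summed CD8 T cell, erythroid, NK and plasma cell markers moved between these groups as well, and their part in the calls was not tested. Between Ag+Costim and Ag, 0.0346% of genes were called. Both comparisons with Naive share the Naive libraries, and both comparisons with Ag share the Ag libraries. The median log2 fold change of the 10 members was 0.32 in Ag vs Naive, -0.27 in Ag+Costim vs Ag and, in the third comparison, -0.01, and that of all genes tested was 0.08, -0.10 and -0.08.

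**Figure D2:**
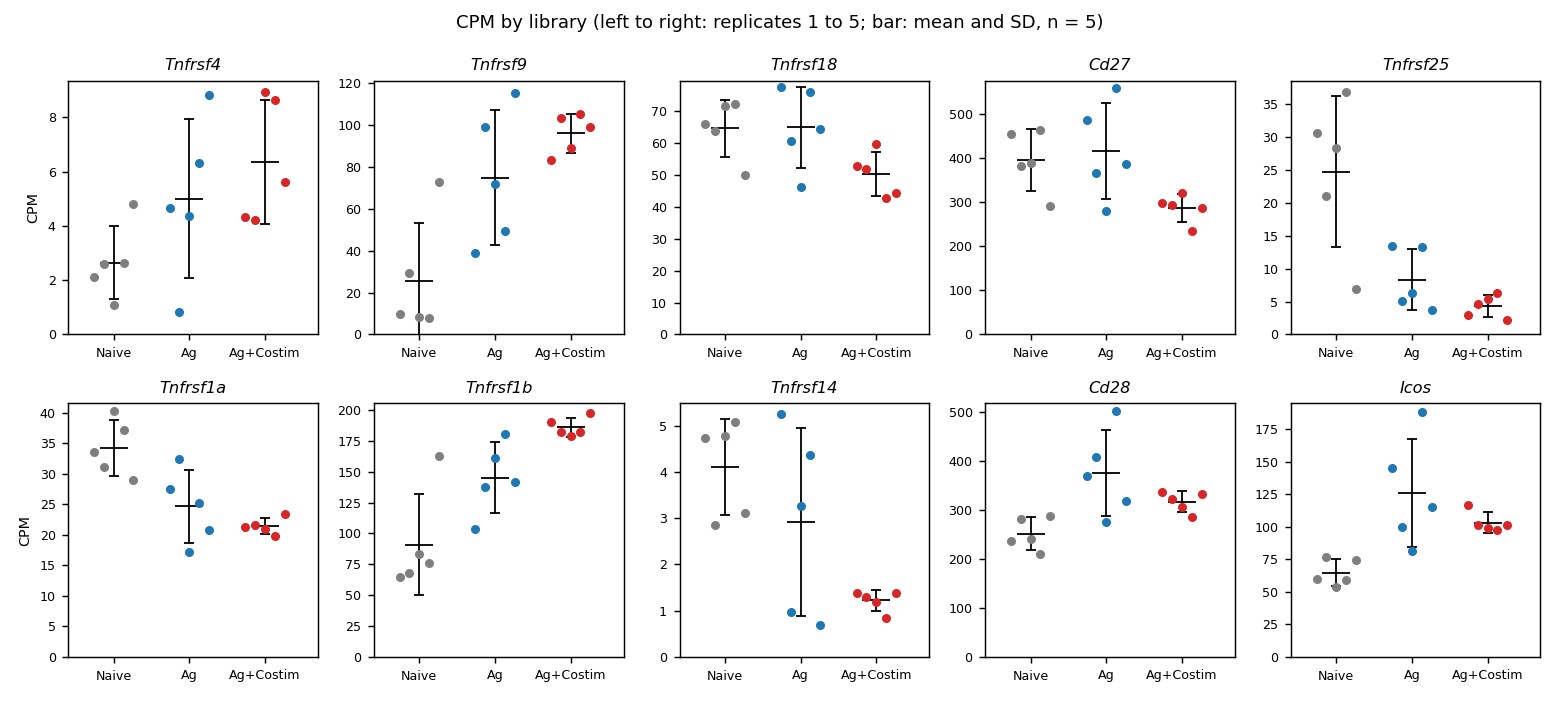
CPM of each member in the 15 libraries, replicates 1 to 5 from left to right in each group, with the mean and SD (n = 5). Ag+Costim libraries lie close together, Ag libraries are spread, and Naive 5 lies near the primed libraries for Tnfrsf9, Tnfrsf1b and Tnfrsf25.

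The targets of the agonist antibodies are described first. Tnfrsf9 (4-1BB) had 9.86, 29.3, 8.39, 7.85 and 72.5 CPM in Naive 1 to 5, 39.0, 99.1, 71.6, 49.2 and 115 CPM in Ag 1 to 5, and 83.4, 103, 88.8, 105 and 99.0 CPM in Ag+Costim 1 to 5. All Ag+Costim libraries lay above all Naive libraries. Ag and Naive overlapped only through Naive 5. The log2 fold change was 1.91 ± 0.55 in Ag+Costim vs Naive (SE, edgeR FDR 0.0177). Between Ag and Naive it was 1.55 ± 0.55 and did not pass (edgeR FDR 0.0921), but without Naive 5 it was 2.45 (edgeR FDR 0.00279). That was the single pass among 10 fits that each left out 1 library, and the edgeR FDR reached 0.213. Leaving out Naive 5 raised the share of all genes called to 21.5% in Ag vs Naive and 51% in Ag+Costim vs Naive. The difference between Ag+Costim and Ag was 0.35, with a 95% interval from -0.79 to 1.5.

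Tnfrsf4 (OX40) was low. It had 2.11, 2.6, 1.08, 2.64 and 4.79 CPM in Naive 1 to 5, 4.65, 0.827, 4.36, 6.30 and 8.83 CPM in Ag, and 4.31, 4.23, 8.93, 8.63 and 5.63 CPM in Ag+Costim. These rest on 12 counts in Ag 2 to 141 counts in Ag 5. Ag+Costim and Naive overlapped only through Naive 5. No comparison passed the test: the log2 fold change was 0.93 ± 0.50 in Ag vs Naive (edgeR FDR 0.224) and 1.27 ± 0.50 in Ag+Costim vs Naive (edgeR FDR 0.0506). Without Naive 5 the latter was 1.61 with an edgeR FDR of 0.0200, where 51% of all genes were called. That was the single pass among 10 fits that each left out 1 library, and the edgeR FDR reached 0.106. Between Ag+Costim and Ag the log2 fold change was 0.34, with a 95% interval from -0.70 to 1.39.

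Tnfrsf18 (GITR), the neighbour of Tnfrsf4, had its lowest mean level in Ag+Costim, where that of Tnfrsf4 was highest. It had 65.8, 63.6, 71.4, 72.2 and 50 CPM in Naive, 77.4, 60.7, 46.2, 76.0 and 64.2 CPM in Ag, and 52.9, 51.8, 59.6, 42.8 and 44.3 CPM in Ag+Costim. The groups overlapped in every comparison. The log2 fold change was 0.01 ± 0.15 in Ag vs Naive, a value whose sign changed with the scaling, -0.37 ± 0.15 against Ag (edgeR FDR 0.14) for Ag+Costim, and -0.36 ± 0.15 for Ag+Costim against Naive (edgeR FDR 0.0619). The last of these passed in 1 of 10 fits that each left out 1 library, without Naive 5 (-0.43, edgeR FDR 0.0276). In that fit 51% of all genes were called, and over the 10 fits the edgeR FDR of Tnfrsf18 reached 0.391.

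Cd27, the receptor for CD70, had 454, 382, 389, 463 and 290 CPM in Naive, 486, 365, 280, 558 and 387 CPM in Ag, and 298, 293, 321, 235 and 286 CPM in Ag+Costim. Naive 5 and Ag 3 were the lowest of their groups and lay within the Ag+Costim range. Cd27 fell in Ag+Costim vs Naive, with a log2 fold change of -0.46 ± 0.18 (edgeR FDR 0.0468). Of 10 fits that each left out 1 Ag+Costim or Naive library, the call was kept in 1, without Naive 5. The edgeR FDR ran from 0.0194 to 0.286, and 21.6% to 51% of all genes were called in these fits. Against Ag the log2 fold change was -0.54 ± 0.18 (edgeR FDR 0.0936). Between Ag and Naive it was 0.07 ± 0.18, whose sign changed without Naive 5, without Ag 4 and with lane as a term. In a fit without Ag 3 and Naive 5, Cd27 passed in Ag+Costim vs Ag too (-0.63, edgeR FDR 0.0331). In that fit 5.73% of all genes were called.

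Tnfrsf25 (DR3), a death domain receptor that costimulates T cells on binding TL1A, had the largest fitted difference of the 10. It had 30.6, 21.1, 28.4, 36.8 and 6.85 CPM in Naive, 13.4, 5.03, 6.32, 13.3 and 3.69 CPM in Ag, and 2.92, 4.63, 5.41, 6.23 and 2.22 CPM in Ag+Costim. Every Ag+Costim library lay below every Naive library, and Naive 5 lay within the Ag range. Tnfrsf25 fell in Ag+Costim vs Naive (log2 fold change -2.53 ± 0.47, edgeR FDR 0.00358). Between Ag and Naive the value was -1.56 ± 0.46 (edgeR FDR 0.0539), and -1.80 with an edgeR FDR of 0.00865 without Naive 5. That comparison passed in 3 of 10 fits that each left out 1 library, and the edgeR FDR reached 0.149. Ag+Costim differed from Ag by -0.97, with a 95% interval from -1.96 to 0.02. The difference passed without Ag 2 and Ag 5 (-1.26, edgeR FDR 0.0488), where 50.5% of all genes were called.

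**Figure D3:**
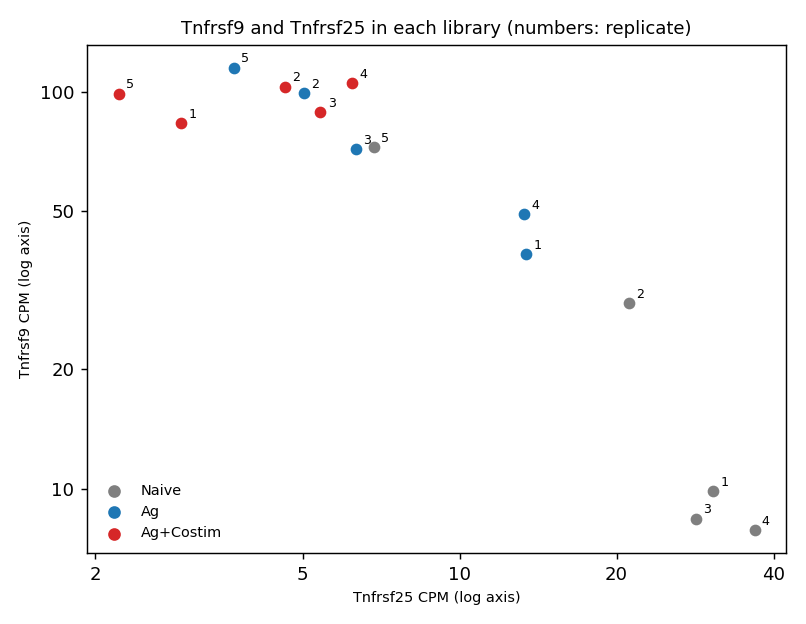
CPM of Tnfrsf9 against CPM of Tnfrsf25 in each library (both log axes, numbers are replicates). Naive 1, 3 and 4 lie at 28.4 to 36.8 CPM of Tnfrsf25 and under 10 CPM of Tnfrsf9, Ag 1 and 4 lie between, and Naive 5, Ag 2, 3 and 5 lie next to or among the Ag+Costim libraries.

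The scatter of Tnfrsf9 and Tnfrsf25 shows the spread within groups. Naive 5 had 72.5 CPM of Tnfrsf9 and 6.85 CPM of Tnfrsf25, close to Ag 3 with 71.6 and 6.32 CPM. Ag 1 and Ag 4 had the lowest Tnfrsf9 and the highest Tnfrsf25 of the Ag group, and these were the libraries with the high Izumo1r. The values of both genes come from the same library and share its depth.

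The receptors for TNF itself moved in opposite directions in Ag+Costim vs Naive. Tnfrsf1b (TNFR2), the TNF receptor without a death domain, had 64.4, 67.9, 83.1, 76.1 and 163 CPM in Naive, 104, 138, 161, 181 and 142 CPM in Ag, and 190, 182, 179, 182 and 198 CPM in Ag+Costim. Naive 5 stood at about the level of Ag 3 and was far above the other Naive libraries. Tnfrsf1b rose in Ag+Costim vs Naive (log2 fold change 1.03 ± 0.23, edgeR FDR 0.00667). Its Ag vs Naive value was 0.67 ± 0.23 (edgeR FDR 0.0818), and 1.00 without Naive 5 (edgeR FDR 0.00112). That was the single pass among 10 fits that each left out 1 library, and the edgeR FDR reached 0.206. Against Ag the Ag+Costim value was 0.36, with a 95% interval from -0.12 to 0.84.

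Tnfrsf1a (TNFR1), the death domain receptor for TNF, had 33.6, 31.1, 40.4, 37.2 and 29.0 CPM in Naive, 27.5, 32.5, 17.2, 25.3 and 20.8 CPM in Ag, and 21.3, 21.6, 21.0, 19.9 and 23.4 CPM in Ag+Costim. Every Ag+Costim library was below every Naive library, while Ag spanned both ranges. Tnfrsf1a fell in Ag+Costim vs Naive (log2 fold change -0.68 ± 0.15, edgeR FDR 0.00733). Among 10 fits that left out 1 library, the call was lost only without Ag+Costim 4 (edgeR FDR 0.0569), where 29.6% of all genes were called. The Ag vs Naive value of Tnfrsf1a was -0.47 ± 0.15 (edgeR FDR 0.0751, and 0.0365 without Naive 5). No other fit that left out 1 library passed there, and the edgeR FDR reached 0.195. Ag+Costim differed from Ag by -0.21, with a 95% interval from -0.54 to 0.12. The ratio of Tnfrsf1b TPM to Tnfrsf1a TPM had a median of 1.14 in Naive (1.06 to 2.92), 3.74 in Ag (2.08 to 5.10) and 4.70 in Ag+Costim (4.65 to 5.06). Its highest Naive value was again that of Naive 5, so that Ag+Costim lay above every Naive library.

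Tnfrsf14 (HVEM), the receptor for LIGHT and the partner of BTLA and CD160, was the lowest member in primed cells. It had 4.74, 2.84, 4.77, 5.07 and 3.12 CPM in Naive, 5.25, 0.965, 3.27, 4.37 and 0.689 CPM in Ag, and 1.39, 1.3, 1.19, 0.843 and 1.39 CPM in Ag+Costim, on 11 counts in Ag 5 to 128 counts in Naive 3. Ag 2 and Ag 5, the libraries of lowest input, were under the highest Ag+Costim library, and Ag 1, 3 and 4 were above the lowest Naive library. B cells also express HVEM, and the B cell marker Ms4a1 was at about 25 CPM or above in Ag 1, 3 and 4. In Naive libraries Ms4a1 did not pass 2.06 CPM. The part of B cells in the Tnfrsf14 levels was not tested. Tnfrsf14 fell in Ag+Costim vs Naive (log2 fold change -1.74 ± 0.47, edgeR FDR 0.0141). Against Ag the Ag+Costim value was -1.23 ± 0.47 (edgeR FDR 0.123). It passed there without Ag 5 (-1.49, edgeR FDR 0.0270), where 19.7% of all genes were called. It also passed without Ag 2 and Ag 5 (-1.68, edgeR FDR 0.00128), where 50.5% of all genes were called. Ag differed from Naive by -0.51, with a 95% interval from -1.49 to 0.47.

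Both CD28 family members had higher mean levels in Ag and Ag+Costim than in Naive, with the highest mean in Ag. Icos had 59.6, 76.7, 53.7, 58.8 and 74.5 CPM in Naive, 145, 100, 81.7, 188 and 115 CPM in Ag, and 117, 101, 98.9, 97.4 and 101 CPM in Ag+Costim. It was the single member whose Ag and Naive libraries did not overlap, where 3.85% of all genes did not, and its Ag+Costim libraries were above all Naive libraries as well. Icos rose in Ag vs Naive (log2 fold change 0.96 ± 0.19, edgeR FDR 0.0139) and in Ag+Costim vs Naive (0.67 ± 0.19, edgeR FDR 0.0160). Both calls were kept in each of 10 fits that left out 1 library. Ag+Costim differed from Ag by -0.29, with a 95% interval from -0.70 to 0.11.

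Cd28 had 236, 282, 241, 210 and 288 CPM in Naive, 369, 408, 275, 502 and 318 CPM in Ag, and 337, 322, 305, 286 and 333 CPM in Ag+Costim. Naive 2 and Naive 5 overlapped with Ag 3. Cd28 rose in Ag vs Naive (log2 fold change 0.58 ± 0.15, edgeR FDR 0.0358). The call was kept in 6 of 10 fits that left out 1 library and lost without Naive 1, Naive 3, Naive 4 or Ag 2. In those where it was lost 1.42%, 1.48%, 1.52% and 2.84% of all genes were called, in that order, against 6.71% in the main fit. Over the 10 fits the edgeR FDR ran from 0.0160 to 0.128 and the log2 fold change from 0.45 to 0.67. The Ag+Costim vs Naive value of Cd28 was 0.33 ± 0.15 (edgeR FDR 0.0779). That comparison passed in 1 of 10 fits that left out 1 library, without Naive 5 (edgeR FDR 0.0466), and the edgeR FDR reached 0.168. In Ag+Costim vs Ag the value was -0.24, with a 95% interval from -0.56 to 0.08. Icos and Cd28 were highest in Ag 4, and Icos was next highest in Ag 1, the libraries with 206 and 196 CPM of Izumo1r. Regulatory T cells express ICOS and Izumo1r. The CD4 and regulatory T cell markers summed to 243 CPM in Ag 4 and 220 CPM in Ag 1, and Izumo1r made up most of both sums. The other markers of that list differed. Among Ag libraries, Zbtb7b (19.5 CPM) and Cd40lg (13.4 CPM) were highest in Ag 4, and Cd4 (4.79 CPM) and Ikzf4 (5.88 CPM) in Ag 3. Cd40lg reached 20.2 CPM in Naive 1, and Foxp3 did not pass 1.12 CPM in any library. The part of such cells in the Icos and Cd28 levels was not tested. The ratio of Cd28 TPM to Icos TPM was 3.03 ± 0.302 in Naive cells, 2.44 ± 0.460 after Ag and 2.34 ± 0.118 after Ag+Costim.

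**Figure D4:**
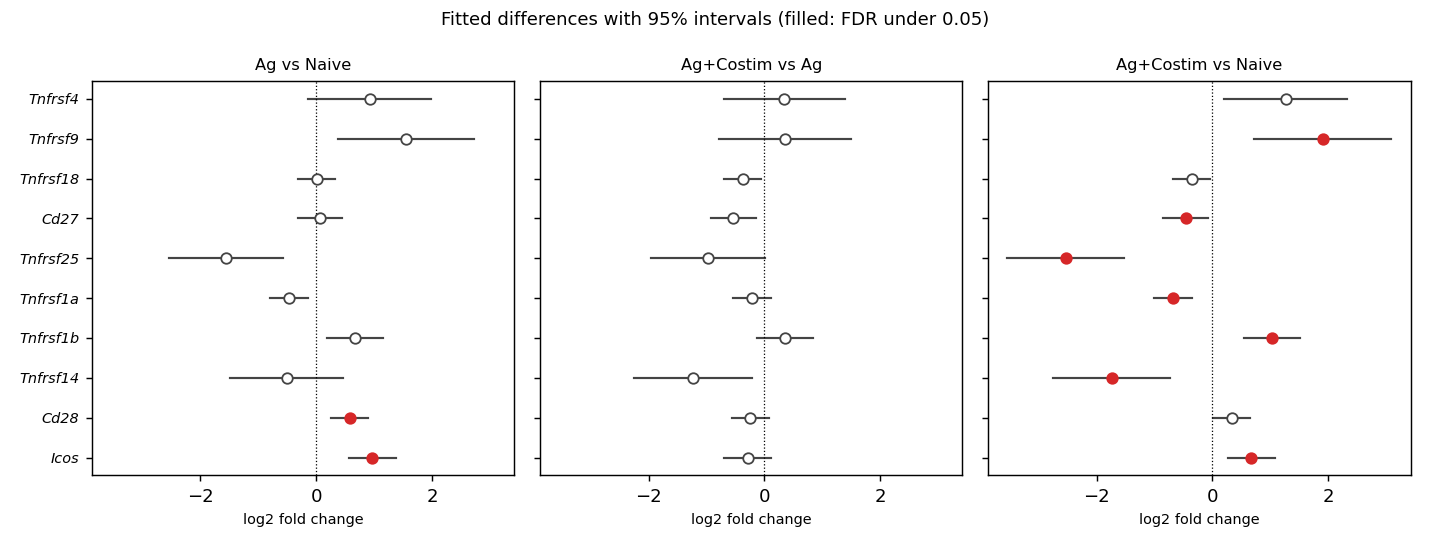
Fitted log2 fold change of each member in the 3 comparisons with its 95% interval; filled points passed an FDR under 0.05. Of the members, 2 passed in Ag vs Naive, 7 in Ag+Costim vs Naive, and 0 between Ag+Costim and Ag.

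The question of what the agonist antibodies added to antigen is addressed by Ag+Costim vs Ag. By edgeR 0 of 10 members passed, and 3 (Cd27, Tnfrsf14 and Tnfrsf18, all lower in Ag+Costim) had an unadjusted p under 0.05, where 26.8% of all genes did. DESeq2 called 0 members and 18.4% of genes, and limma-voom with sample weights called 9 members (all but Tnfrsf4) and 64.5% of genes. No member had Ag+Costim and Ag libraries that did not overlap, against 6.33% of all genes. Within lane 2, with 5 Ag and 3 Ag+Costim libraries, 0 members passed and the log2 fold changes had the signs of the full fit, from -1.14 for Tnfrsf14 to 0.35 for Tnfrsf1b. The Ag libraries spread more than the Ag+Costim libraries: the SD of Tnfrsf1b was 28.7 CPM against 7.56 CPM, that of Icos 41.8 against 7.77 CPM and that of Cd27 109 against 31.7 CPM.

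The Ag+Costim vs Naive calls of Tnfrsf9, Tnfrsf1b, Tnfrsf25 and Tnfrsf14 were kept in each of 10 fits that left out 1 library. Between these groups, 6 of 10 members did not overlap (Tnfrsf9, Tnfrsf1b, Icos, Tnfrsf25, Tnfrsf1a and Tnfrsf14), against 45.0% of all genes. Within lane 3, with 5 Naive and 2 Ag+Costim libraries, the log2 fold changes were 2.02 for Tnfrsf9, 1.07 for Tnfrsf1b, 0.62 for Icos, -2.55 for Tnfrsf25, -0.67 for Tnfrsf1a, -1.89 for Tnfrsf14 and -0.60 for Cd27. There 7 members passed: Tnfrsf4, Tnfrsf1b and Icos higher, and Tnfrsf18, Tnfrsf1a, Tnfrsf25 and Tnfrsf14 lower. The edgeR FDR was 0.0838 for Tnfrsf9 and 0.0658 for Cd27, and 34.7% of all genes passed in that fit. With lane as a term in the fit, the signs stayed and no member passed by edgeR, where 5.43% of all genes did.

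Transcript estimates were examined for 7 members with more than 1 transcript that could be tested (Tnfrsf25, Icos, Cd28, Tnfrsf9, Tnfrsf4, Cd27 and Tnfrsf18). No member was called in any comparison by edgeR's test of transcript usage, where 0.547% of 7501 genes were called in Ag vs Naive, 1.01% in Ag+Costim vs Naive, and 0.933% between Ag+Costim and Ag. The member transcripts with an unadjusted p under 0.05 numbered 0, 3 and 1 of 24 in that order, and limma diffSplice called 0 members. Of 24 member transcripts in the test, 4 had shares that did not overlap between Ag+Costim and Naive, and all were of Cd27. Of all transcripts in the test, 14.2% did so. The largest non-coding shares came from transcripts that run on into an intron, and the boundaries that define them are shown from the GENCODE M21 transcripts (GRCm38), 5′ to 3′, with the bases outside the usual exon in capitals.
Cd27-206, end of the second exon, chr6:125236443-125236502, minus strand: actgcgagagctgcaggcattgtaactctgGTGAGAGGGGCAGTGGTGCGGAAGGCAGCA
Cd28-203, end of the second exon, chr1:60763306-60763365, plus strand: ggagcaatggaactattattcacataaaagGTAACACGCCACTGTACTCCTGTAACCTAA
Tnfrsf18-206, chr4:156028020-156028079, plus strand: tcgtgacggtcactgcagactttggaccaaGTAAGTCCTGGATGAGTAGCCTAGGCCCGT
Tnfrsf4-203, extended start of an inner exon, chr4:156015300-156015415, plus strand: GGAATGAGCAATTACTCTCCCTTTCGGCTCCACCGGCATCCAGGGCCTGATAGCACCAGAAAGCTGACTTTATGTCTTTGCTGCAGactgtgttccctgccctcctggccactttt

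Cd27-206 reads 365 bases past its exon, Cd28-203 reads 1291, Tnfrsf18-206 keeps a whole intron of 171 bases, and the first 30 intron bases of each are shown. Each of the retained stretches begins with GT, the usual first bases of an intron. Tnfrsf4-203 begins an inner exon 86 bases early, all of which are shown.

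Cd27-206 held 15.3%, 12.3%, 9.81%, 18.0% and 4.95% of Cd27 counts in Naive, 9.56%, 4.26%, 3.82%, 6.87% and 2.81% in Ag, and 4.11%, 3.64%, 2.67%, 1.80% and 2.48% in Ag+Costim. Its Ag+Costim shares were below all Naive shares, as were those of 23.3% of the retained-intron transcripts in the test. Cd28-203 held 13.4%, 12.3%, 9.51%, 16.9% and 5.96% of Cd28 counts in Naive, 14.6%, 6.77%, 5.47%, 13.5% and 3.80% in Ag, and 5.77%, 6.28%, 4.19%, 3.50% and 3.52% in Ag+Costim. Naive 5 was the lowest Naive library for both, and Ag 1 and Ag 4 were the highest Ag libraries for both. The widest 95% Wilson interval of these shares spanned 2.67 percentage points and covers counting error only.

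The libraries also differed in how many genes were detected at all. Naive libraries and Ag 1, 3 and 4 had counts for 30152 to 44408 genes, and Ag 2, Ag 5 and the Ag+Costim libraries for 20949 to 25410 genes. Ag 1 and Ag 4 had the highest Ag shares of both transcripts. Ag 3, with the most genes and the fewest total counts (4865952), had lower shares of both than Ag 2 with 21705 genes. The part of the number of genes detected in the shares was not tested. Counting only protein-coding transcripts, Cd28 stood at 204, 247, 219, 174 and 271 CPM in Naive, 315, 380, 260, 434 and 306 CPM in Ag, and 318, 302, 292, 276 and 322 CPM in Ag+Costim. On that scale the lowest Ag+Costim library (276 CPM) was above the highest Naive library (271 CPM), which was not so for all Cd28 counts. On all counts 45.0% of all genes did not overlap between these groups. That share was not computed for coding transcripts, and the coding levels were not tested. The level of coding Cd27 was 275 to 379 CPM in Naive and 230 to 311 CPM in Ag+Costim, which overlap.

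Tnfrsf4 had few counts and the most uneven transcript estimates. Tnfrsf4-203 held 81.8%, 33.3%, 0%, 28.9% and 93.1% of Tnfrsf4 counts in Naive, 74.1%, 0%, 0%, 19.3% and 0% in Ag, and 0%, 0%, 2.36%, 1.5% and 0% in Ag+Costim. A share of 0 allowed up to 24.2% on the 12 counts of Ag 2 and up to 5.58% on the 65 counts of Ag+Costim 1 (upper 95% Wilson bounds). Naive and Ag libraries fell on both sides, and the Ag+Costim libraries were all low. For Tnfrsf4 the edgeR FDR of the gene was 0.0472 in Ag+Costim vs Naive and that of the transcript 0.0592, so that it was not called. Its protein-coding transcript stood at 0.192, 1.73, 1.04, 1.53 and 0 CPM in Naive, 1.12, 0.758, 3.92, 4.87 and 8.45 CPM in Ag, and 4.04, 4.15, 8.22, 8.43 and 5.42 CPM in Ag+Costim. Counted this way, the Ag+Costim libraries lay above all Naive libraries, Naive 5 included. The share of all genes that did so on this scale was not computed, and on all counts 45.0% of genes did not overlap.

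**Figure D5:**
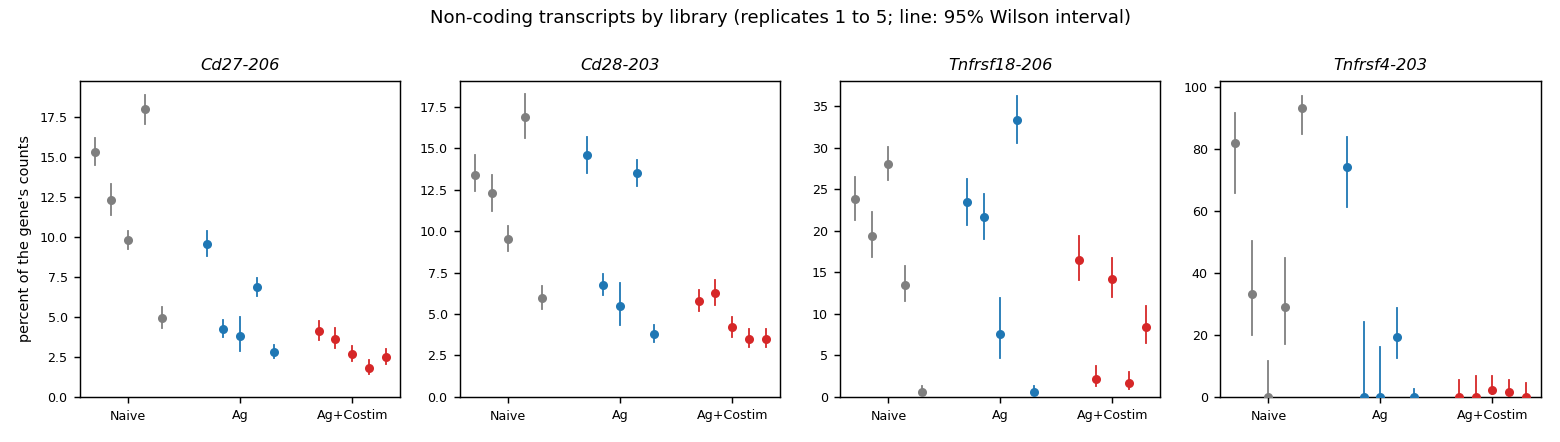
Percent of each gene's counts in 4 non-coding transcripts by library (replicates 1 to 5, lines are 95% Wilson intervals). Cd27-206 ranges from 4.95% to 18.0% in Naive and from 1.80% to 4.11% in Ag+Costim, and Tnfrsf4-203 reaches 93.1% in Naive 5 but no more than 2.36% in Ag+Costim.

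Genes that act with the members were described by lists. Of 14 ligands and counter-receptors, 12 were tested. In Ag vs Naive, where 6.71% of all genes were called, 4 rose and none fell, with a median log2 fold change of 0.79. They were Cd160, a partner of HVEM (129 ± 25.4 CPM in Ag against 67.5 ± 14.7 in Naive, SD, n = 5), Tnfsf4, the OX40 ligand (4.36 ± 4.10 against 0.277 ± 0.250), Cd86, a ligand of CD28 (17.2 ± 8.69 against 4.34 ± 2.25), and Tnfsf14, which encodes LIGHT (9.47 ± 4.25 against 4.39 ± 1.07). B cells express Cd86 too, and Ms4a1 stood at 25 CPM in the median Ag library against 0.347 CPM in the median Naive library. In Ag+Costim, Cd86 stood at 8.68 ± 2.11 CPM and Ms4a1 at 3.25 CPM in the median library. The part of B cells in the Cd86 levels was not tested. Of the same list 3 rose and 2 fell in Ag+Costim vs Naive, with a median of 0.43, and 5 of 12 is near the 44.7% called of all genes. Cd160 (log2 fold change 0.93), Tnfsf9, the ligand of 4-1BB (1.85), and Tnfsf4 (2.30) rose, and the lymphotoxin gene Ltb (-1.06) fell, with edgeR FDRs from 0.00335 to 0.0405.

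Of 19 other TNF receptors 13 were tested. In Ag vs Naive 2 fell, Tnfrsf26 (log2 fold change -1.04) and Tnfrsf22 (-0.81), the latter a decoy receptor for TRAIL in the mouse. None rose, and of all genes 6.71% were called. Of these 13, 1 rose and 5 fell in Ag+Costim vs Naive, with a median of -0.58, and 6 of 13 is again near the share of all genes called (44.7%). Tnfrsf26 (-1.37), Tnfrsf12a (-1.48), Tnfrsf22 (-0.83) and Relt (-0.59) were among those that fell. The single one that rose, named after its values were seen, was Tnfrsf13c, the BAFF receptor of B cells (1.77). The inhibitory relatives of CD28 both rose in both comparisons with Naive. Pdcd1 (PD-1) stood at 41.9 ± 47.0 CPM in Naive cells, 195 ± 40.5 after Ag and 196 ± 29.4 after Ag+Costim, and Ctla4 at 11.8 ± 15.1, 83.3 ± 33.2 and 53.2 ± 15.5 CPM. Cd28 and Icos thus changed by less on the log2 scale (0.58 and 0.96) than Pdcd1 (2.22) and Ctla4 (2.83) in Ag vs Naive, and the difference between these genes was not tested.

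All 28 genes listed downstream of TNF receptors were tested. In Ag vs Naive 2 rose, the adaptor Tradd (log2 fold change 0.50) and Nfkb1 (0.55), and Traf6 fell (-0.81). Of all genes 6.71% were called there. Of the 28, 3 rose and 10 fell in Ag+Costim vs Naive, with a median of -0.26, and 13 of 28 is near the 44.7% of all genes. Tradd (0.62) rose, and among those that fell were the NF-kappaB inhibitor gene Nfkbia (-1.26), the kinase gene Ikbkb (-1.31) and Map3k14, which encodes NIK (-1.73). All 19 genes listed downstream of CD28 were tested too. In Ag vs Naive, where 3.66% of all genes fell, 6 of the 19 fell and none rose, with a median of -0.13. Those that fell included Pik3r5 (-0.75), Malt1 (-1.04) and Pik3cd (-0.96). Of the 19, 2 rose and 7 fell in Ag+Costim vs Naive, with a median of -0.25, where 9 of 19 is near the same 44.7%. Malt1 (-0.97), Pik3ca (-1.12) and Pik3r1 (-1.01) were among those that fell. EdgeR called 0 of the 74 tested genes of these 5 lists between Ag+Costim and Ag. Of them 18 had an unadjusted p under 0.05, where 26.8% of all genes did, and voom with sample weights called 45, where it called 64.5% of all genes. DESeq2, which tested 82 genes of the lists, called 9 of them and 18.4% of all genes. None of these counts between Ag+Costim and Ag was above the share over all genes.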

How the data were processed

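RNA was sequenced from 15 libraries of sorted CD8+ T cells as single reads of 50 bases from SMART-Seq v4 and Nextera XT libraries. The submitters' processing notes name HISAT2 2.1.0, SAMtools 1.9, StringTie 2.1.0, R 4.0.5, DESeq2 1.30.1 and mm10. The authors deposited estimated counts from StringTie per gene and per transcript as whole numbers, not normalised, and a core table with the count of reads per library, the lane and an input amount. Of 81881 gene entries 55536 matched GENCODE M21, and 26248 with a number only held 0.0818% of counts and were left out. Gene counts equalled the sums of the transcript counts.

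From these, genes were filtered with filterByExpr (17366 kept), scaled by TMM and fitted with edgeR 4.0.16 (R 4.3.3) by quasi-likelihood over all 15 libraries, with 1 coefficient per group and Benjamini-Hochberg adjustment. CPM are counts per 1000000 of the TMM-scaled library total. TPM were computed from the transcript counts and annotated lengths. Transcript usage was tested with diffSpliceDGE, a call needing an FDR under 0.05 for gene and transcript and a change of 10 percentage points in share. The common biological coefficient of variation was 0.431, and total counts from 4865952 to 25280667 limit the low genes most. The scripts were tested on simulated data. All 10 members were named. Of each list the called genes with the lowest FDR were named, up to 4 per list and comparison, except 1 gene that is not reported here. Members and lists were chosen with earlier results of these data known. Alternatives were DESeq2 1.42.0, other scalings, no filter, limma-voom (limma 3.58.1), a replicate block, lane, fewer libraries and leaving out each library. A further 2 were chosen after seeing the data: without Ag 3 and Naive 5, and without Ag 2 and Ag 5. The FPKM table and the sample sheet were not used. The annotation release is not given in the sources used here.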

Additional observations from a re-analysis of the deposited data

Results flagged for a closer look

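In 10 of 96 groups of 5 libraries, 1 library lay apart from the others by more than Dixon's 95% value. Chance flags about 1 in 20 groups. For whole genes these were Tnfrsf1b in Naive 5 (163 CPM) and Icos in Ag+Costim 1 (117 CPM). The others were shares of a gene's counts in 1 transcript, examined for transcripts with a mean share of at least 5%. They were Tnfrsf25-201 in Ag 3 (93.1%), Tnfrsf25-202 in Ag 3 (0%), Tnfrsf4-203 in Ag 1 (74.1%), Tnfrsf4-201 in Ag 1 (24.1%), Tnfrsf9-201 in Naive 5 (10.1%), Tnfrsf1a-201 in Naive 5 (96.3%), Icos-202 in Naive 1 (89.5%) and Tnfrsf14-205 in Ag 4 (77%). Tnfrsf25 had 29 counts in Ag 3 and Tnfrsf14 had 61 in Ag 4, so the transcript shares of these genes rest on few reads.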

How the results depend on the processing

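In Ag vs Naive, 2 members passed. The count was 6 by DESeq2 and by voom with sample weights, 5 with a replicate block, 5 without Ag 3 and Naive 5, 1 with library totals, 1 without the lowest inputs, and 0 with no filter, with lane as a term or from the libraries of the comparison alone. Leaving out each library gave 1 to 6, the 6 without Naive 5. The share of all genes called moved too, from 6.71% in the main fit to 16.8% by DESeq2 and 23.1% by voom. It was 21.5% without Naive 5 and 22.9% without Ag 3 and Naive 5. With a replicate block it was 9.56%, with library totals 6.55% and without the lowest inputs 4.61%. In the fits with 0 members it was 0.425% with no filter, 0% with lane as a term and 0.0358% from the comparison's libraries alone. Between Ag+Costim and Ag, 0 passed (3 at an unadjusted p under 0.05 by edgeR). The count was 9 by voom (64.5% of all genes), 1 without Ag 3 and Naive 5 (5.73%) and 2 without the lowest inputs (50.5%). On leaving out each library it was 0 to 1, the 1 without Ag 5, where 19.7% of all genes were called. Between Ag+Costim and Naive, 7 passed, and 0 with lane as a term. The count was 10 by voom and from the libraries of the comparison alone, 8 by DESeq2 (Tnfrsf4 added), 8 without the lowest inputs (Cd27 lost, Tnfrsf4 and Cd28 gained), 5 with no filter (Cd27 and Tnfrsf1a lost) and 7 with library totals (Icos lost, Tnfrsf18 gained). Leaving out each library gave 5 to 10, the 10 without Naive 5. Of all genes, 44.7% were called in the main fit, 77.9% by voom and 64.8% from the libraries of the comparison alone. The share was 51% without Naive 5, 56.4% without the lowest inputs and 37% by DESeq2. It was 46.7% with library totals, 8.49% with no filter and 5.43% with lane as a term. Transcript usage called 0 members, and 1 (Tnfrsf4) in Ag+Costim vs Naive with no filter. Correlations of deviations between libraries of the same replicate number ran from -0.324 to 0.470. Libraries of different numbers were not correlated, so whether the numbers pair the libraries was not tested. The replicate block gave 0 members between Ag+Costim and Ag, where 0% of all genes were called. Between Ag+Costim and Naive it gave 7, with Tnfrsf4 gained and Cd27 lost, where 45.1% of all genes were called. The causes were not tested.

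Directions changed for 4 values, none of which passed the test. In Ag vs Naive, the log2 fold change of Tnfrsf18 (0.01) was -0.03 by DESeq2, -0.01 with DESeq2 size factors, -0.06 with library totals, -0.05 with no filter, -0.32 with lane as a term, and -0.07 to 0.11 on leaving out each library. That of Cd27 (0.07) was -0.15 with lane as a term and -0.05 to 0.19 on leaving out each library. That of Tnfrsf14 (-0.51 ± 0.46, SE) was 0.05 without the lowest inputs. In Ag+Costim vs Ag, Tnfrsf1a (-0.21 ± 0.15) was at 0.02 with no filter, 0.01 without the lowest inputs, and -0.30 to 0.01 on leaving out each library. In Ag+Costim vs Naive 0 of 210 values changed direction. Depth limits Tnfrsf4 and Tnfrsf14 most, with 11 to 141 counts a library.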
